A study of Mus musculus with 24 samples.

Results

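Lamin A/C-bound regions recovered with antibody N18 from wild-type (WT) fibroblasts after 30 cycles of sonication were set against those recovered after 12 cycles. The members are all regions that the authors called in these 2 of the 24 libraries of the series, namely 281 domains and 6627 islands at 30 cycles and 238 domains and 8762 islands at 12 cycles, out of 3486 domains and 87065 islands in the 12 libraries with region lists. Each base pair of the genome was placed in a class by the lists that held it: 30 cycles only, both, or 12 cycles only. The cells were immortalized murine dermal fibroblasts of genotype Lap2alpha +/+, untreated and fixed with formaldehyde before shearing, with 1 library for each sonication. N18 is raised against the N terminus of lamin A/C. Elsewhere in the series stand Lap2alpha -/- (KO) cells of the same kind, which lack LAP2alpha, the antibody 3A6 against the immunoglobulin fold of lamin A/C, and immunoprecipitations of LAP2alpha and lamin B1 in WT cells. The comparison asks which chromatin is found with the same antibody when shearing is extended.

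A-type lamins are intermediate filament proteins that build the nuclear lamina together with B-type lamins, and a mobile pool of them also occupies the nuclear interior. Chromatin at the lamina is organized in lamina-associated domains, long stretches that are mostly poor in genes, rich in A and T and transcriptionally quiet. LAP2alpha, a splice product of Tmpo without a membrane anchor, binds A-type lamins in the nuclear interior.

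Domains were called by the authors with EDD, which looks for broad enrichment, and islands with SICER, which joins neighbouring windows rich in reads. The islands held 9600190 reads at 30 cycles and 5091621 reads at 12 cycles, or 39.5 and 21.2 reads per kb of island. The 30- and 12-cycle libraries differed in flow cell as well as in shearing, and these cannot be told apart. No replicate spread exists for any value. Islands covered at most 1% of 5 chromosomes (1, 4, 7, 12 and 16) in at least 1 of the libraries, and chromosomes 7 and 12 carried 1 island each at 30 cycles and 1 each at 12 cycles. Domains were called on all 20 chromosomes. Island values therefore speak mainly for the 15 other chromosomes, and unevenly for these. At 30 cycles islands covered 1.22% to 2.27% of chromosomes 2, 5, 9, 10 and 18, and 35.3% of chromosome 8. At 12 cycles the same values were 2.26% to 3.77% and 36.4%. Domains are the main readout. The lists hold no expression values, so the fibroblast label could not be checked against marker transcripts.

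The sequence at gene starts is shown with 2 promoters for each class. The first belongs to the longest gene of the class with a RefSeq promoter near its annotated start, and the other to a gene whose CpG count equals the class median among RefSeq promoters. Each runs over 300 bases, from 250 before to 50 after the RefSeq start (table build GRCm38.p6), and was placed on NCBIM37, the mm9 assembly, by exact match. CpG dinucleotides are in capitals.
Dab1, 30 cycles only, chr4:103291855-103292154, plus strand: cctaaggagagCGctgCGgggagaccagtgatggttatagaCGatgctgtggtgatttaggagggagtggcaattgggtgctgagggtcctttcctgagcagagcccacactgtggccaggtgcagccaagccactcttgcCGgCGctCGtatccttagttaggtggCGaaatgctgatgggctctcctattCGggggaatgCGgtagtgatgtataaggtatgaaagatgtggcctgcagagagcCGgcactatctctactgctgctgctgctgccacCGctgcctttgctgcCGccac
3110047P20Rik, 30 cycles only, chr5:64040092-64040391, plus strand: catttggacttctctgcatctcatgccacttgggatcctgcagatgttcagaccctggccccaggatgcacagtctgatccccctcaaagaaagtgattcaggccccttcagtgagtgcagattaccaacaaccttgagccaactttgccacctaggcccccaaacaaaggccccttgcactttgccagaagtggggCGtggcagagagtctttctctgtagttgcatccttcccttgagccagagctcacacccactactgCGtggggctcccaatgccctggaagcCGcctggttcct
Ptprt, both, chr2:162486834-162487133, minus strand: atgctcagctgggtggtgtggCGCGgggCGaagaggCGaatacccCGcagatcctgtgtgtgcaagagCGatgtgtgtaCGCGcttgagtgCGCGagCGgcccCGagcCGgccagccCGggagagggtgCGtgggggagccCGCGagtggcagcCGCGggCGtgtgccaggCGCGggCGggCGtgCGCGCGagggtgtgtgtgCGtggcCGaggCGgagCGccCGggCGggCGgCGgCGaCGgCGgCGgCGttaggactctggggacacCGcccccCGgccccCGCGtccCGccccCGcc
2900026A02Rik, both, chr5:113592284-113592583, minus strand: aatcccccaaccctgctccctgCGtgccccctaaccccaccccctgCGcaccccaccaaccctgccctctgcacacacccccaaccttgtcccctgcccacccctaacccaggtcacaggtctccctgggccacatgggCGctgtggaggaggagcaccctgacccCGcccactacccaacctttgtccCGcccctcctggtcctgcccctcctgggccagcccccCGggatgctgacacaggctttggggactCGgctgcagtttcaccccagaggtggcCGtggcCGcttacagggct
Nckap5, 12 cycles only, chr1:128727160-128727459, minus strand: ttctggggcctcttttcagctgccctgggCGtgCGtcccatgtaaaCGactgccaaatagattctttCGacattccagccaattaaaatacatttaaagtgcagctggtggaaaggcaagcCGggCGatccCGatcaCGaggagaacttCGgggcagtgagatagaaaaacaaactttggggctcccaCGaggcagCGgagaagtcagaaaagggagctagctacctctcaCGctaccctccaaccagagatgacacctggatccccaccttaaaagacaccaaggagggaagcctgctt
1110021J02Rik, 12 cycles only, chr17:29853913-29854212, minus strand: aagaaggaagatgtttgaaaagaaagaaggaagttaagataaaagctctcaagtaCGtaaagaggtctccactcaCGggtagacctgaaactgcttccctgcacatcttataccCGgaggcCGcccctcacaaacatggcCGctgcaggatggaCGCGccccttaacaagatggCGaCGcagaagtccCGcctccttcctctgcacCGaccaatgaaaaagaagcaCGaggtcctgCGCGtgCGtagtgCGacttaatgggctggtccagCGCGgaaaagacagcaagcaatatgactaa
The promoters chosen at the class median follow the medians by their choice. That of 3110047P20Rik held 3 CpG, that of 2900026A02Rik 9 and that of 1110021J02Rik 18. Among the long genes the order was not the same, since Dab1 (30 cycles only) and Nckap5 (12 cycles only) held 12 CpG each and Ptprt (both) held 46. The windows of Dab1 and 3110047P20Rik lay wholly in 30-cycle domains, those of Nckap5 and 1110021J02Rik wholly in 12-cycle domains, and those of Ptprt and 2900026A02Rik in domains of both libraries.

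Over all genes of a class the same window was read from NCBIM37 at the GENCODE start, with 598 of 599 genes of the class of 30 cycles only, all 707 of both and all 5383 of 12 cycles only having a usable window. The median was 3 CpG per window in 30 cycles only, 7 in both and 16 in 12 cycles only, beside 11 over all 22203 windows of the genome. At least 15 CpG were found in 18.1% of promoters of 30 cycles only, 34.7% of both and 53.1% of 12 cycles only, beside 43.6% of all. Fewer than 5 were found in 57.9%, 36.6% and 17.98% in the same order, beside 30.1% of all. The letters GGGCGG, searched on both strands, occurred in 20.9% of windows of 30 cycles only, 38.8% of both and 54.4% of 12 cycles only (43.5% of all). The letters TATAAA, on both strands, occurred in 19.9%, 9.48% and 8.30% (13.4% of all). Without olfactory and vomeronasal receptor genes the median CpG counts were 5, 8 and 16, so the order of the classes stayed.

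The 30-cycle library had more domains that were shorter and covered less. The 281 domains at 30 cycles summed to 239 Mb (9.04% of the genome), against 238 domains and 404 Mb (15.3%) at 12 cycles. The mean domain was 0.849 Mb at 30 cycles and 1.70 Mb at 12 cycles, and the median was 0.693 Mb and 0.891 Mb. The longest reached 4.015 Mb at 30 cycles and 32.703 Mb at 12 cycles. In base pairs, 50.9% of the 30-cycle domain length lay inside 12-cycle domains, and 30.1% of the 12-cycle domain length lay inside 30-cycle domains. Of the length held by either list, 23.3% was held by both. When the 12-cycle list was cut to its highest-scoring domains so that the lists had the same total length, the shares were 31.2% of the 30-cycle and 31.2% of the 12-cycle length.

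The classes came to 117 Mb for 30 cycles only (204 stretches), 121 Mb for both (157 stretches) and 282 Mb for 12 cycles only (306 stretches). At 30 cycles, 128 of 281 domains (45.6%, 95% Wilson interval 39.8% to 51.4%) shared no base pair with a 12-cycle domain, and at 12 cycles 124 of 238 (52.1%, 45.8% to 58.4%) shared none with a 30-cycle domain. These intervals cover counting error only. Domains found at 30 cycles alone had a median distance of 4103 kb to the nearest 12-cycle domain, and 102 of the 128 were more than 1 Mb away. No background distance was taken for either list. The 12-cycle list is sparse on some chromosomes, with 1 domain on chromosome 3 and 2 on chromosome X. For the domains found at 12 cycles alone the median distance to a 30-cycle domain was 2673 kb, and 100 of the 124 were more than 1 Mb away. Their median length was 616 kb at 30 cycles alone and 682 kb at 12 cycles alone. With lists of the same total length these medians were 649 kb and 1919.5 kb, and among domains above the median score 907.5 kb and 1397 kb. The score rises with domain length, so a cut by score favours long domains. The cut to the same total length was made in the 12-cycle list alone, so its median of 1919.5 kb is no separate measure of domain length. The overlapping domains were longer, with medians of 737 kb at 30 cycles and 1215.5 kb at 12 cycles.

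**Figure D1:**
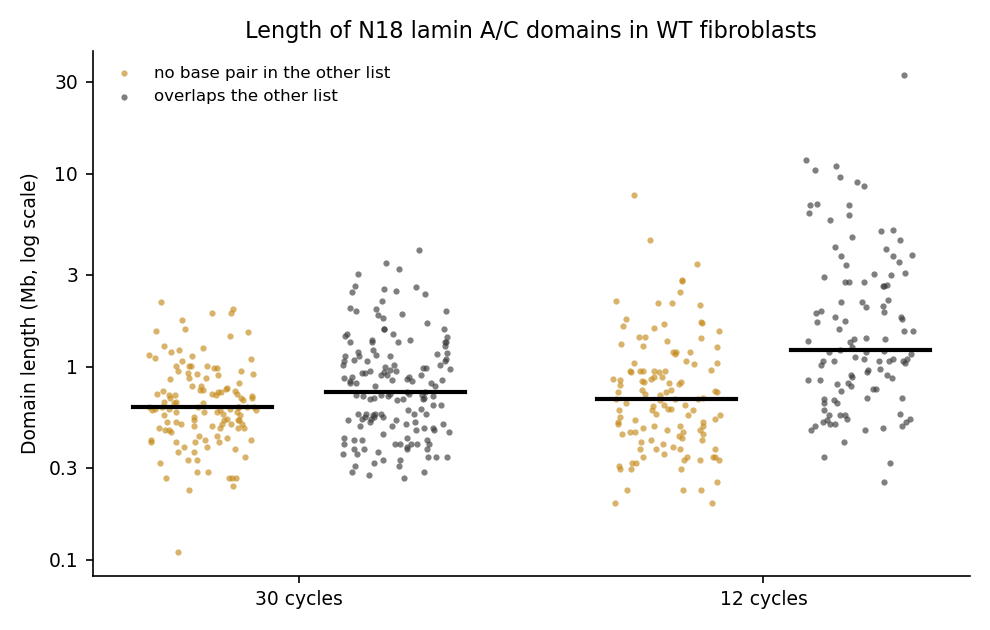
Length of every N18 domain in WT cells in Mb on a log scale, at 30 cycles (left) and 12 cycles (right), split by whether the domain overlaps the other list. Each point is a domain and the black bars are medians (616 and 737 kb at 30 cycles, 682 and 1215.5 kb at 12 cycles), and all domains above 5 Mb are from 12 cycles.

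The lists differed in how their unshared length was laid out. Of the 30-cycles-only length, 78.1% (91.5 Mb) was in domains standing alone, 23.6 Mb was in stretches touching a shared stretch on 1 side and 2.07 Mb in 4 stretches between shared ones. Of the 12-cycles-only length, 40.6% (115 Mb) was in domains standing alone, 98.2 Mb in stretches next to a shared stretch on 1 side and 69.6 Mb in 43 stretches with shared length on either side. Long 12-cycle domains differed in how much of them was held at 30 cycles. The 32.703-Mb domain on chr5:110506001-143209000, with 459 genes, was covered to 36.9% by 9 domains of the 30-cycle library. The 11.7-Mb domain on chr2:161810001-173547000 was covered to 47.1% by 3 domains. The 9.614-Mb domain on chr2:24453001-34067000, with 227 genes, kept 2.97% in 1 domain, and the 7.799-Mb domain on chr17:24420001-32219000 kept 0%. The longest 30-cycle domain, chr5:125983001-129998000, lay wholly inside the 32.703-Mb domain of the 12-cycle library.

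Gene density set 12 cycles only apart from the other classes. A gene was counted in a class when at least 50% of its length lay in it, which placed 599 of 22208 protein-coding genes (2.7%) in 30 cycles only, 707 (3.18%) in both and 5383 (24.2%) in 12 cycles only. There were 5.11 genes per Mb in 30 cycles only, 5.82 in both and 19.1 in 12 cycles only, beside 8.42 in the genome. The density in 30 cycles only was 0.268 of that in 12 cycles only. Exons took up 1.42% of the length of 30 cycles only, 2.04% of both and 6.73% of 12 cycles only (2.92% in the genome). The domains standing alone showed the same contrast, with a median of 2.89 genes per Mb at 30 cycles alone and 11.3 at 12 cycles alone, and 19 of 128 against 1 of 124 held no gene. G+C was 41.5% in 30 cycles only, 45.6% in both and 47.4% in 12 cycles only, with 41.8% in the genome, so 30 cycles only differed from 12 cycles only by -5.85 percentage points and was near the genome value. CpG dinucleotides followed with 7.315, 10.1 and 12.8 per kb (8.34 in the genome).

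**Figure D2:**
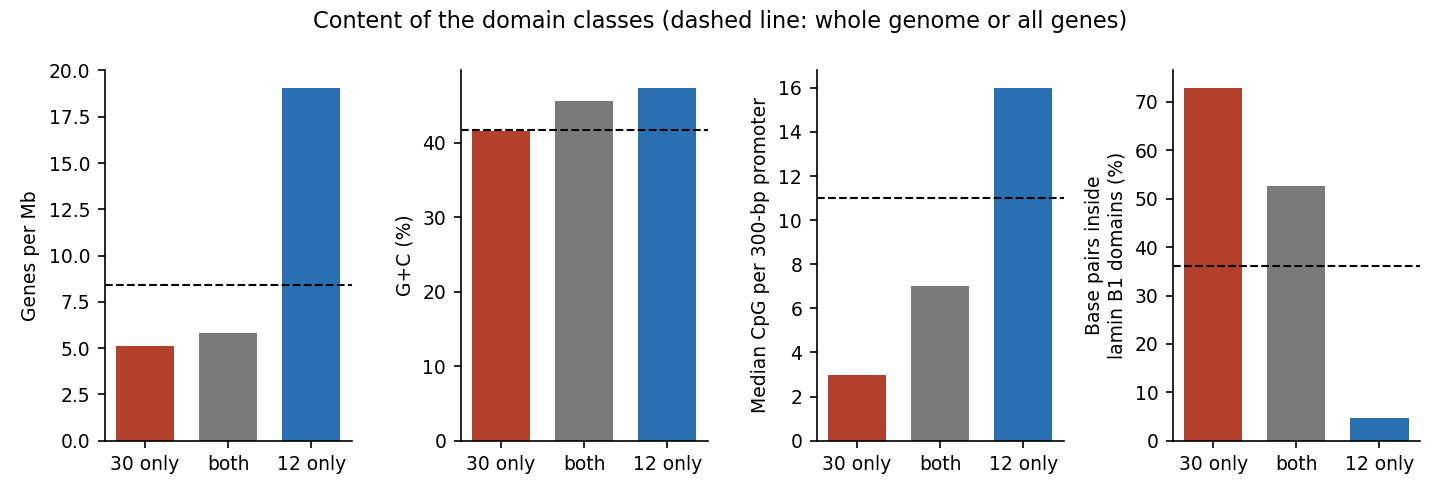
Genes per Mb, G+C percentage, median CpG count in the 300-base promoter window and percentage of base pairs inside 30-cycle lamin B1 domains, for domain base pairs or genes found at 30 cycles only (red), at both (grey) and at 12 cycles only (blue). Dashed lines give the genome or all genes, and the class of 12 cycles only has the highest bar for gene density (19.1 per Mb) and the lowest for lamin B1 (4.62%).

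Gene length did not give 1 order of the classes. The median gene was 8.14 kb in 30 cycles only, 17.7 kb in both and 13.9 kb in 12 cycles only, beside 15.5 kb over all genes. The 30-cycles-only genes were spread to both ends of the length range: 41.9% were under 5 kb, against 21.7% in 12 cycles only, and 2.84% were 500 kb or longer, against 0.186%. Olfactory and vomeronasal receptor genes, which are short and lie in clusters, made up 108 of the 599 genes of 30 cycles only, 12 of both and 28 of 12 cycles only. Without them the medians were 13.95 kb, 18.5 kb and 13.97 kb, so that the ratio of 30 to 12 cycles only, 0.586 with the receptors, was 0.998. Among domains above the median score the medians were 15.6 kb for 30 cycles only and 13.4 kb for 12 cycles only, and in islands 12.9 kb and 12.3 kb, both in the other direction. Genes from 5 to 50 kb formed 37.4% of 30 cycles only, 51.2% of both and 63.7% of 12 cycles only.

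**Figure D3:**
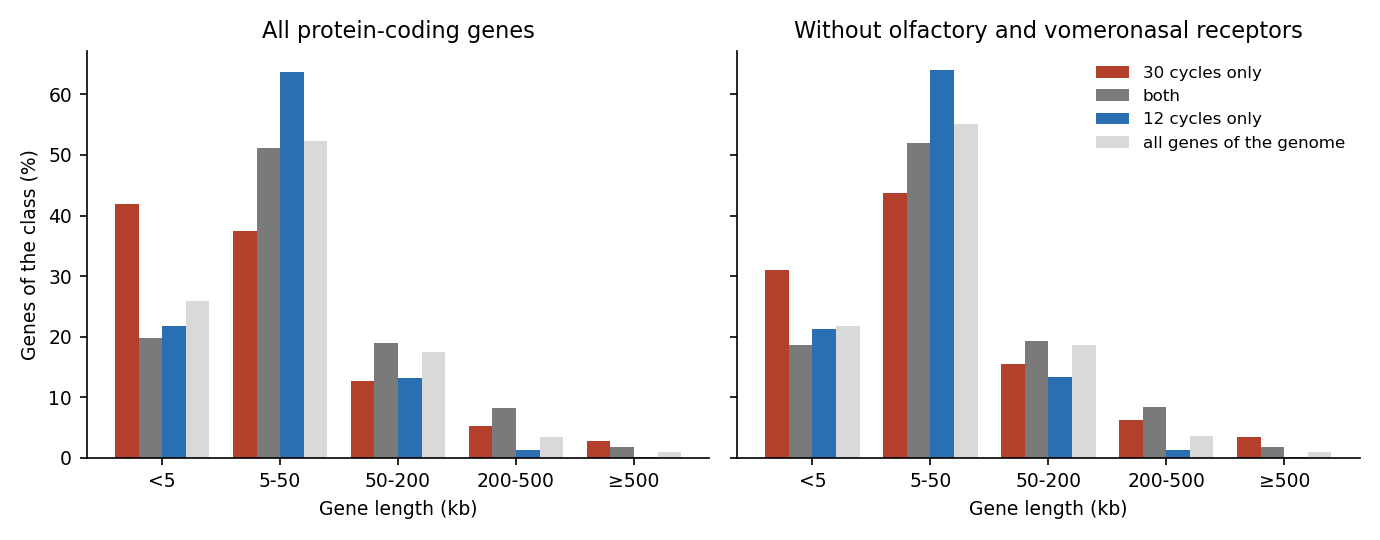
Percentage of the genes of each class in 5 bins of gene length (kb), for all protein-coding genes (left) and without olfactory and vomeronasal receptor genes (right), with all genes of the genome in light grey. Genes under 5 kb make up 41.9% of 30 cycles only and 31.0% once the receptors are left out, against 21.7% and 21.3% of 12 cycles only.

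Very long genes were few in 12 cycles only. Of the 200 genes of 500 kb or more, 17 (8.5%) were in 30 cycles only, 13 (6.5%) in both and 10 (5%) in 12 cycles only, whereas these classes held 2.7%, 3.18% and 24.2% of all genes. A long gene reaches 50% coverage only in a long stretch, the lists differ in domain length, and the part of this in the counts was not tested. The longest gene of 30 cycles only was Csmd1 (1643 kb, chr8:15892537-17535586, minus strand), which encodes a large membrane protein with complement-control repeats. It lay to 100% in 30-cycle domains and to 0% in 12-cycle domains. Nrxn3, a neurexin of the presynaptic membrane (1612 kb, chr12:89961320-91573375), was covered to 89.9% and 0%. Dab1, an adaptor in Reelin signalling (1125 kb on chromosome 4), Ntm, which encodes the neural adhesion protein neurotrimin (968 kb on chromosome 9), and Thsd7b (946 kb on chromosome 1) were covered to 100% at 30 cycles and 0% at 12 cycles.

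Of the long genes held by both libraries, Cdh13, the gene of T-cadherin (1041 kb on chromosome 8), and Sdk1, a cell adhesion gene (974 kb on chromosome 5), were covered to 100% in each library. Ptprt, a receptor tyrosine phosphatase gene, was covered to 100% at 30 cycles and 70.1% at 12 cycles. Accn1, which encodes an acid-sensing ion channel, was covered to 92.0% and 100%. Park2, the gene of the ubiquitin ligase parkin, was covered to 94.4% and 58.7%. In 12 cycles only the longest record, Gm20388 (4435 kb), spans 72 other genes and is uncertain as a gene. After it came Auts2 (1106 kb) with 36.5% at 30 cycles and 100% at 12 cycles, and Nckap5 (917 kb) with 49.04% and 100%, just short of the limit for both. Wwox, an oxidoreductase gene at a fragile site (913 kb), was covered to 9.58% and 90.3%. Camta1, a calmodulin-binding transcription activator gene (802 kb), was covered to 0% and 100%.

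The longest stretches of 30 cycles only held from 1 to 16 genes each. The longest, chr8:15708001-18601000 (2.893 Mb, G+C 40.5%), held 1 gene, Csmd1. The stretch chr14:58663001-60841000 (2.178 Mb) held 16 genes and was also the longest domain found at 30 cycles alone. Its longest genes were Atp8a2, a phospholipid flippase gene, and Cab39l, a scaffold of the LKB1 kinase complex. The stretch chr12:89419001-91410000 (1.991 Mb) held 4 genes with Nrxn3, and chr5:39039001-40931000 (1.892 Mb) held 4 genes, among them the zinc finger gene Zfp518b. The stretch chr9:28457001-30349000 (1.892 Mb) held 2 genes with Ntm, and chr11:23859001-25608000 (1.749 Mb) held 2, of which Bcl11a encodes a transcriptional repressor of haematopoietic cells. Lamin B1 domains of the 30-cycle library covered 82.9% to 100% of 5 of these 6 stretches and 0% of that on chromosome 14.

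The 6 longest stretches of 12 cycles only were longer and dense in genes, with 69 to 200 genes each and G+C from 46.9% to 50.5%. The first, chr2:25751001-34067000 (8.316 Mb), held 163 genes. Among them were Col5a1, a chain of fibrillar collagen V, Tor1a, which encodes the nuclear envelope ATPase torsin A, and the ribosomal protein genes Rpl12 and Rpl7a. The stretch chr17:24420001-32219000 (7.799 Mb) held 200 genes, with Lemd2, whose product is an inner nuclear membrane protein that binds A-type lamins, the glutamate receptor gene Grm4 and the ribosomal protein genes Rps2, Rps10, Rpl10a and Rpl3l. It was the longest domain found at 12 cycles alone. The stretch chr5:134574001-141339000 (6.765 Mb) held 163 genes with Sun1, which links the lamina to the cytoskeleton, and Fzd9, a Wnt receptor gene. The stretch chr8:121858001-128260000 (6.402 Mb) held 109 genes with the muscle cadherin gene Cdh15 and Rpl13. The stretch chr12:108977001-114488000 (5.511 Mb) held 79 with Wars, a tRNA synthetase gene, and chr13:51007001-56254000 (5.247 Mb) held 69 with the histone gene Hist1h2al. Lamin B1 domains of the 30-cycle library covered 0% of all 6.

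The 6 longest stretches of both ranged from 2.398 to 4.015 Mb with 2 to 18 genes and G+C from 43.8% to 50.3%. The first, chr5:125983001-129998000, held 12 genes with Fzd10, a Wnt receptor gene. The stretch chr7:143011001-146036000 (3.025 Mb) held 6 genes with Mgmt, a DNA repair gene, and chr5:26400001-29370000 (2.97 Mb) held 17 with Dpp6, which encodes an auxiliary subunit of potassium channels. The stretch chr2:170423001-173041000 (2.618 Mb) held 18 genes with Dok5 and the growth factor gene Bmp7, chr15:86042001-88528000 (2.486 Mb) held 2, Tbc1d22a and Fam19a5, and chr4:151800001-154198000 (2.398 Mb) held 15 with the potassium channel subunit gene Kcnab2. Lamin B1 domains of the 30-cycle library covered 66.0% to 100% of 5 of these stretches and 0% of that on chromosome 4.

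Of 19 genes for lamins, their membrane partners and the complex that links the nucleus to the cytoskeleton, 0 were in 30 cycles only, 0 in both and 10 (52.6%) in 12 cycles only, beside 2.7%, 3.18% and 24.2% of all genes. In a list of this size counts of 0 are near the shares of the first and second classes. The 10 were Lmnb2 (lamin B2), Lbr (the lamin B receptor), Sun1 and Sun2 (inner membrane proteins of the linker complex), Lemd1, Lemd2, Ankle1 and Ankle2 (LEM-domain proteins), Banf1 (a chromatin protein that binds LEM domains) and Tor1a. All 10 were covered to 0% at 30 cycles and 100% at 12 cycles. Of 20 genes typical of dermal fibroblasts, 0 were in 30 cycles only, 0 in both and 4 (20%) in 12 cycles only, all near the shares of all genes. The 4 were Pdgfra (a growth factor receptor), Thy1 (a surface glycoprotein), Twist2 (a transcription factor) and Fbln1 (a matrix protein). Pdgfra was covered to 76.7% at 12 cycles and the other 3 to 100%. Collagen genes had 1 of 43 in 30 cycles only (Col22a1), 2 in both (Col9a3 and Col20a1) and 11 (25.6%) in 12 cycles only, likewise near those shares, among them Col4a1, Col4a2, Col5a1, Col6a3 and Col7a1.

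Lists of genes that every cell uses are read here against the 2.7% of all genes in 30 cycles only, 3.18% in both and 24.2% in 12 cycles only. Since these lists are short, counts of 0 or 1 in the first and second classes are near those shares. Ribosomal protein genes had 0 of 79 in 30 cycles only, 1 in both (Rpl39l) and 34 (43.0%) in 12 cycles only. Proteasome genes had 0, 0 and 13 of 48 (27.1%), and tRNA synthetase genes 0, 0 and 12 of 34 (35.3%). Oxidative phosphorylation genes had 1, 4 and 24 of 77 (31.2%), and the 1 in 30 cycles only was the pseudogene-named Atp5l-ps1. Wnt and Frizzled genes had 0, 1 and 11 of 29 (37.9%). Zinc finger genes of the Zfp series had 8, 9 and 68 of 367 (18.5%), below the 24.2% of all genes. Of 39 Hox genes 0 were in a class, and of 67 histone cluster genes 1, in 12 cycles only. Genes of several lists lie in clusters, so members of a list share stretches and are not independent of each other.

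Members of clustered families lay together, and their counts stand beside 2.7% of all genes in 30 cycles only, 3.18% in both and 24.2% in 12 cycles only. Olfactory receptor genes, which encode the odorant receptors of the nose, had 91 of 1113 (8.18%) in 30 cycles only, 12 (1.08%) in both and 27 (2.43%) in 12 cycles only. Those of 30 cycles only came from 5 chromosomes, with 32 on chromosome 7 and 31 on chromosome 11. Vomeronasal receptor genes, for pheromone receptors, had 17 of 319 in 30 cycles only, of which 15 lay on chromosome 13, 0 in both and 1 in 12 cycles only. The remaining 983 olfactory and 301 vomeronasal receptor genes were in no class. Beta-defensin genes, for antimicrobial peptides of epithelia, had 11, 8 and 11 of 41. On chromosome 8 there were 11 in 30 cycles only and 8 in both, whereas all 11 on chromosome 2 were in 12 cycles only. Keratin genes had 0, 12 and 22 of 46. The 12 in both were type II keratins on chromosome 15, among them Krt1 and Krt5 of the epidermis, and in 12 cycles only there were 9 of chromosome 15, with Krt8 and Krt18, and 13 type I keratins of chromosome 11, with Krt14.

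Genes of the nervous system fell in all classes. Neuronal adhesion genes had 6 of 41 (14.6%) in 30 cycles only, 4 (9.76%) in both and 2 (4.88%) in 12 cycles only, beside 2.7%, 3.18% and 24.2% of all genes. The median length in this list is 713 kb. Of all genes of 500 kb or more, 8.5%, 6.5% and 5% were in these classes. Each of the 3 shares was thus nearer to that of long genes than to that of all genes. In a list of 41 the counts are small, and a difference from long genes was not tested. The 6 were Nrxn3, Csmd1, Ntm, Cntn3, Cntnap4 and Cntnap5c, the 4 were Cntn2, Csmd2, Dpp6 and Dscaml1, and the 2 were Nrxn2 and Odz4. Glutamate and GABA receptor genes had 2 (Grm7 and Grin2a), 4 and 10 of 47. Potassium channel genes had 5, 6 and 32 of 92 (34.8%). Cadherin genes had 1 (Cdh6), 3 (Cdh4, Cdh13 and Cdh26) and 4 of 23. Genes at fragile sites had 1 (Dab1), 1 (Park2) and 2 (Auts2 and Wwox) of 16.

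The balance of the classes varied by chromosome. Domains covered more of the chromosome at 30 than at 12 cycles on 4 chromosomes and less on 16. Chromosome 14 was covered to 9.15% at 30 cycles and 2.01% at 12 cycles, with 10.03 Mb in 30 cycles only, 1.42 Mb in both and 1.1 Mb in 12 cycles only. Chromosome 3 was covered to 5.75% and 0.407%, and its only 12-cycle domain was also found at 30 cycles. The other direction was largest on chromosome 1, with 7.15% at 30 cycles and 31.1% at 12 cycles, and on chromosome 19, with 1.18% and 20.7% and no shared base pair. On chromosome X the coverage was 1.60% and 1.52%, so that leaving it out changed little: 51.2% of the 30-cycle autosomal length lay in 12-cycle domains.

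**Figure D4:**
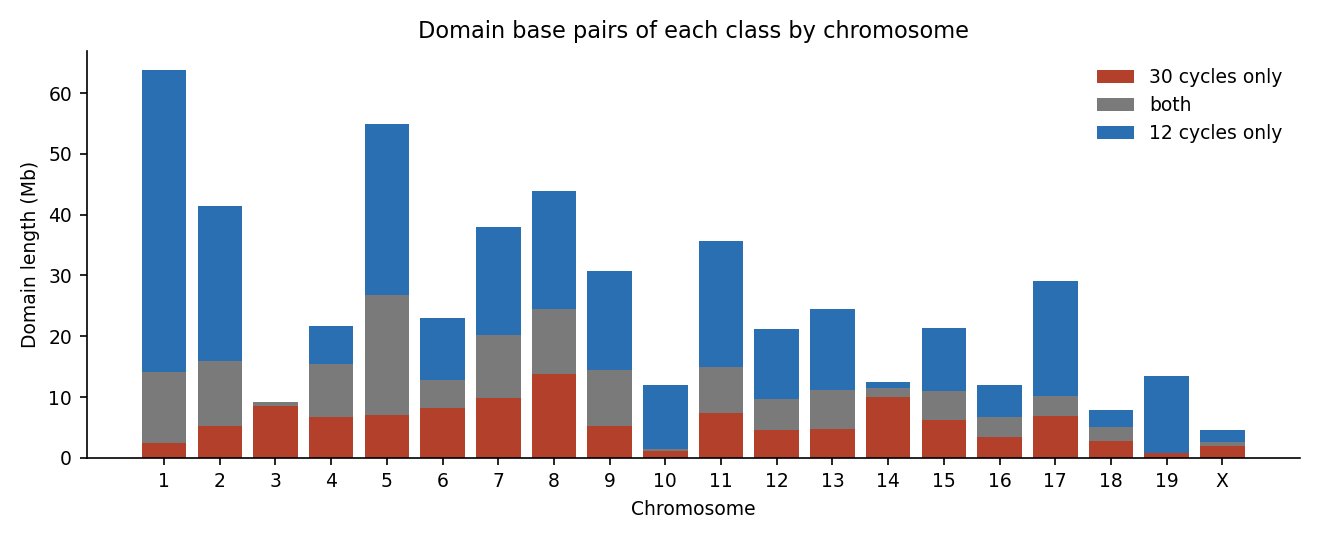
Length in Mb of the domain base pairs found at 30 cycles only (red), at both (grey) and at 12 cycles only (blue) on each of the 20 chromosomes. Blue takes most of the length on chromosomes 1, 10 and 19, and red most of it on chromosomes 3 and 14.

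SICER islands gave the same order of gene density, with a smaller difference between 30 cycles only and 12 cycles only. The difference between 30 cycles only and both was larger by islands (5.66 and 10.2 genes per Mb) than by domains (5.11 and 5.82). Islands summed to 243 Mb at 30 cycles and 241 Mb at 12 cycles, with a median length of 23 kb and 18 kb. Of the island length, 37.1% at 30 cycles lay in 12-cycle islands and 37.4% at 12 cycles lay in 30-cycle islands. At 30 cycles 3962 of 6627 islands (59.8%) shared no base pair with the other list, against 5134 of 8762 (58.6%) at 12 cycles. The median length of these unshared islands was 20 kb at 30 cycles and 16 kb at 12 cycles, the reverse of the order of unshared domains. By islands 866 genes (3.9%) were in 30 cycles only, 919 (4.14%) in both and 2488 (11.2%) in 12 cycles only, at 5.66, 10.2 and 16.5 genes per Mb. G+C was 42.1%, 45.6% and 45.9%.

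Islands were also counted inside the domain classes. They were called from the same 2 libraries that define the classes, so these values describe the classes and are not an independent readout. The 30-cycle islands covered 28.2% of the domain class of 30 cycles only, 23.9% of both and 14.2% of 12 cycles only, beside 9.21% of the genome. The 12-cycle islands covered 11.5%, 17.1% and 26.1% of the same classes, beside 9.12% of the genome. Both libraries had island coverage above their genome value in the class that the other library alone called as domains, 14.2% against 9.21% at 30 cycles and 11.5% against 9.12% at 12 cycles. These genome values take no account of chromosome. At 12 cycles islands covered 0.00742% of chromosome 12 and 36.4% of chromosome 8, which held 13.8 of the 117 Mb of 30 cycles only. The part of chromosome in these differences was not tested. Within Csmd1 the islands covered 79.1% at 30 cycles and 33.9% at 12 cycles. Cdh13, in domains of both libraries, was covered to 95.9% and 84.02%. Dlgap2, a postsynaptic scaffold gene in 12 cycles only, was covered to 0% and 96.3%. Csmd1, Cdh13 and Dlgap2 all lie on chromosome 8, of which islands covered 35.3% at 30 cycles and 36.4% at 12 cycles. On other chromosomes Dab1, Nrxn3, Ntm and Thsd7b, likewise in 30 cycles only by domains, were covered by islands to 0% in both libraries. They lie on chromosomes 4, 12, 9 and 1, of which islands covered at most 1.66% at 30 cycles and 3.17% at 12 cycles. The 0% therefore tells little about these genes.

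Domains of other libraries were laid over the classes as a readout that the class rule did not use. Lamin B1 domains of the 30-cycle library covered 72.9% of 30 cycles only, 52.7% of both and 4.62% of 12 cycles only, beside 36.2% of the genome, a difference of 68.3 percentage points between the outer classes. That list shares its sonication and input with the 30-cycle N18 list. The 12-cycle lamin B1 domains, which share them with the 12-cycle N18 list, covered 41.9%, 44.1% and 3.20% (16.9% of the genome), so the lowest class was the same and the order of the other two was not. LAP2alpha domains at 30 cycles covered 44.9%, 65.8% and 50.6% of the classes, and at 12 cycles 20.7%, 93.5% and 88.5%. The genome values for LAP2alpha were 24.6% at 30 cycles and 19.2% at 12 cycles. The 30-cycle LAP2alpha values depended on chromosome. On the 15 chromosomes with islands over 1% in both N18 WT libraries they were 34.4%, 50.9% and 32.9%, beside 14.2% of all length there. The order of 30 cycles only and 12 cycles only was thus not kept. Each LAP2alpha list likewise shares its sonication and input with the N18 WT list of the same cycles.

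The other lamin A/C antibody, 3A6, covered the classes differently at the 2 sonications in WT cells and more alike in KO cells. The 3A6 domains of WT cells covered 59.7% of 30 cycles only, 27.4% of both and 0.958% of 12 cycles only at 30 cycles, and 33.1%, 98.1% and 67.3% at 12 cycles. The 3A6 domains of KO cells covered 60.5%, 75.002% and 16.6% at 30 cycles, and 58.2%, 85.3% and 16.5% at 12 cycles. The genome values for 3A6 were 22.1% in WT and 18.9% in KO at 30 cycles, and 15.1% and 14.5% at 12 cycles. In KO cells N18 domains covered 45.7%, 93.1% and 67.7% of the classes at 30 cycles and 40.7%, 85.7% and 50.5% at 12 cycles. The genome values for these lists were 17.9% and 16.0%. The 12-cycles-only class of WT was thus found in large part in the 30-cycle KO domains of N18 (67.7%), but not in those of 3A6 (16.6%). The KO libraries shared a flow cell with the WT library of the same sonication.

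**Figure D5:**
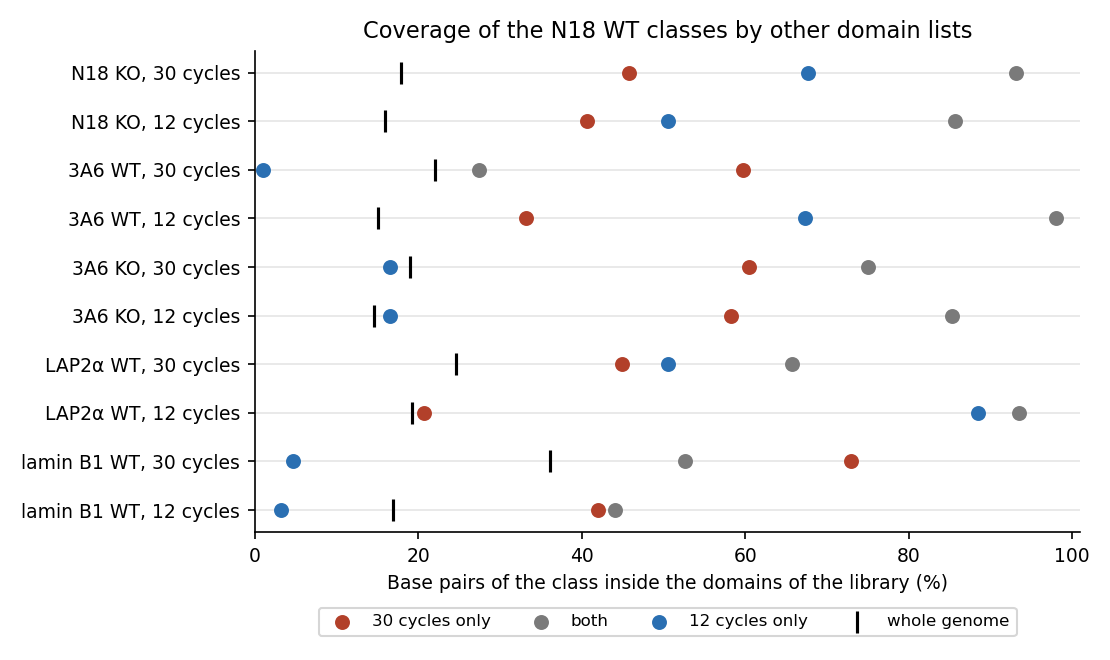
Percentage of the base pairs of each N18 WT class (30 cycles only in red, both in grey, 12 cycles only in blue) that lies inside the EDD domains of 10 other libraries, with the whole genome as a black tick. Lamin B1 rows and the 3A6 rows of WT and KO at 30 cycles have the blue point below the genome tick, and the LAP2alpha row at 12 cycles has it at 88.5%.

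The same split was made for the 2 most similar pairs of libraries, which share no library with the N18 WT pair. For N18 in KO cells it gave 180 Mb of 30 cycles only, 292 Mb of both and 130 Mb of 12 cycles only, with 15.05, 12.4 and 11.7 genes per Mb and 14.2%, 28.4% and 31.5% inside 30-cycle lamin B1 domains. The low gene density of 30 cycles only in WT (5.11 per Mb, against 19.1 in 12 cycles only) was not seen in KO, where 30 cycles only had the highest of the 3 values. For 3A6 in WT cells, which used the inputs of the N18 WT libraries, it gave 519, 62.6 and 336 Mb, with 3.59, 3.56 and 13.3 genes per Mb and 95.2%, 92.4% and 17.3% inside lamin B1 domains. With 1 library in each group these differences between pairs could not be tested.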

How the data were processed

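ChIP-seq libraries of antibody N18 from WT fibroblasts at 30 and 12 cycles were compared, 1 library each. Per the submitters' processing notes and methods, adapters were cut with cutadapt and reads mapped by Bowtie2 2.1.0 on mm9. The authors discarded mapping qualities under 20, removed duplicates and reduced ChIP reads to the matched input with Picard. The deposited island lists (SICER 1.1, window 1000 bp, gap 3000 bp, FDR 0.01) hold counts of ChIP reads per island, not normalized. The deposited domain lists (EDD, bin 11 kb, gap penalty 5, FDR 0.1) hold a score per domain, which rises with length (Spearman's rho 0.766 over 281 domains at 30 cycles and 0.834 over 238 at 12 cycles). Total reads, inputs and histone marks were not used here, and depth was read from the counts in islands.

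All regions lay on multiples of 1000 bp and were compared on a 1000-bp grid over 20 chromosomes (2639 Mb) with Python 3.11.15, NumPy 2.4.6 and pandas 2.3.3, a step tested on simulated regions. Genes were 22208 protein-coding GENCODE symbols on NCBIM37 (22350 records, 1 per symbol), placed in a class at 50% of their length. No test of sonication is possible with 1 library per group, and none was made. Named regions are the 6 longest stretches of each class and the longest domains. Named genes are listed genes in those stretches (else the longest), the 5 longest genes of each class, and listed lamina and fibroblast genes. Other list members were chosen after their values were seen. Promoters came from RefSeq: 16676 genes matched, 16490 were found on NCBIM37 (74.3%), and those over 1 kb from the GENCODE start were passed over, a condition added after they were seen. Since fewer than 80% matched, class values use genome windows. The members, rules and gene lists were chosen with earlier results of these data known. Alternatives were islands for domains, domains above the median score or of at least 500 kb, autosomes, equal total length, other overlap limits, genes by start, no receptor genes, stretches of at least 100 kb and 12-cycle lamin B1. Added after the data were seen were islands on 15 chromosomes, islands above the median read count and islands without receptor genes.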

Additional observations from a re-analysis of the deposited data

Results flagged for a closer look

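In 6 measures of N18 domains or islands the difference of 30 minus 12 cycles had opposite signs in KO and WT cells. The difference was not tested, since each group has 1 library. Total domain length differed by +50.292 Mb in KO (471.966 at 30 and 421.674 at 12 cycles) and by -165.198 Mb in WT (238.557 and 403.755). The number of islands differed by +166 in KO and by -2135 in WT. Genes per Mb of domain differed by +1.24 in KO and by -9.60 in WT. The median length of genes in domains differed by +0.177 kb in KO and by -1.47 kb in WT. G+C of domains differed by +0.762 percentage points in KO and by -3.25 in WT. The share of domain length inside 30-cycle lamin B1 domains differed by -6.36 percentage points in KO and by +43.6 in WT. Other measures compared had the same sign in KO and WT. These were the number of domains (+100 and +43) and total island length (+19.7 and +2.48 Mb). Mean domain length (-0.372 and -0.847 Mb) and median domain length (-0.11 and -0.198 Mb) did so too.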

How the results depend on the processing

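Of 43 alternative values, 27 kept their direction and size, 12 moved and 4 turned. With SICER islands in place of domains, 37.1% of the 30-cycle length lay in the 12-cycle list and 37.4% of the 12-cycle length in the 30-cycle list. The G+C difference was -3.82 percentage points, the lamin B1 difference 39.3, the ratio of median gene lengths 1.05 and the ratio of median region lengths 1.25, these last 2 turned. On the 15 chromosomes with islands the shares were 37.3% and 37.6%, and for islands above the median read count 37.6% and 38.1%. Those chromosomes held 240.9 of the 243.2 Mb of islands at 30 cycles and 238.4 of the 240.7 Mb at 12 cycles. The shares on them could therefore hardly differ, and the lack of islands elsewhere is not tested by them. With lists of the same total length 31.2% of the 30-cycle length was shared. Counting domains touched by at least 1 bp, 47.9% of 12-cycle domains were shared. The ratio of median gene lengths turned to 1.17 for domains above the median score and to 1.14 for islands without receptor genes, and was 0.998 for domains without receptor genes. With 12-cycle lamin B1 domains the difference was 38.7 percentage points. For these moved or turned values the cause was not tested. The ratio of gene densities stayed between 0.221 and 0.342 under the 7 alternatives run for it. No paired analysis was possible because each group has 1 library. Depth limits which regions were called, and its effect could not be bounded from region lists.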
